A study of Mus musculus with 12 samples.

Results

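Monocytes lacking Nr4a3 were followed over their first day of culture with GM-CSF and IL-4, by comparing the libraries labelled KO day 1 with sorted KO monocytes. The comparison is between 4 of the 12 RNA libraries of the series, 2 in each group, chosen by their labels. All mice were on a C57BL/6 background, and the cells came from bone marrow. The KO monocyte group holds Nr4a3 KO cells taken straight after sorting, with no culture. The KO day 1 group holds Nr4a3 KO monocytes kept for 1 day with GM-CSF and IL-4, with no other agent named. The matching WT groups (sorted, and 1 day of the same culture), also 2 libraries each, are set beside the KO values. All 12 libraries of the series share the filter on low counts, the normalization and the estimate of spread behind the KO p-values. The labels place the replicates of a group in independent experiments, and do not give the number of mice behind a library or how the allele was made. The names of the deposited files give 16 hours of culture for day 1 replicate 2 of both genotypes, where the labels give 1 day.

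GM-CSF acts through a receptor that shares its signalling chain, Csf2rb, with other cytokines and activates JAK2 and STAT5. IL-4 acts through Il4ra and STAT6. Given together they turn mouse monocytes into cells that take on dendritic cell features, above all MHC class II on the surface and the integrin CD11c. Nr4a3 encodes a member of the NR4A group of orphan nuclear receptors, whose members are induced quickly by many stimuli and bind DNA without a known natural ligand. The series asks what NR4A3 contributes to that differentiation.

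Library sizes and identity came first. The reads counted in genes were 13764588 and 14431691 in KO monocytes and 10733224 and 18447405 in KO day 1, for replicates 1 and 2 in turn, the order used throughout. Levels are in CPM, counts scaled to a common library size after TMM adjustment, and 3 reads corresponded to between 0.164 and 0.26 CPM in these 4 libraries. Nr4a3 (chromosome 4:48045153-48086447, GRCm38) had 13 and 0 reads in KO monocytes and 76 and 0 reads in KO day 1, against 200 and 128 reads in WT day 1. The 76 reads made 6.58 CPM in the library labelled KO day 1 replicate 1, which lay below the 16.5 and 10.4 CPM of WT day 1 but above its own partner, where a count of 0 allows up to 0.164 CPM. WT monocytes had 4 and 0 reads of Nr4a3, so the gene cannot check the genotype of sorted cells, and the labels do not say which exons the KO allele lacks. The libraries of KO cells at day 2 of the series held 234 and 236 reads of the gene (39.0 and 19.3 CPM). WT day 2 held 11194 and 10741 reads (1287 and 1358 CPM). Reads of Nr4a3 were thus present in other KO libraries, but at a far smaller part of the WT level than in the library labelled KO day 1 replicate 1. The source of these reads was not tested. On the first principal component, which held 52.9% of the variance of all 12 libraries, the library labelled KO day 1 replicate 1 sat at 1.59, while the other 3 day 1 libraries sat between 38.4 and 46.7 and the monocytes between -139.8 and -115.5. Counts of called genes are therefore also given with replicate 2 as the only KO day 1 library.

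Markers of the sorted population were checked next. Ly6c2, the surface marker of classical monocytes, was at 1412 and 1900.3 CPM in KO monocytes, and the chemokine receptor Ccr2 at 1842 and 1441 CPM. Csf1r, the M-CSF receptor, was at 1163 and 1464 CPM there. Markers of T, NK and B cells were at or near 0: Cd3e and Ncr1 had 0 reads in both KO monocyte libraries, and Ms4a1 had 0 and 2. Ly6g, a neutrophil marker, was at 0.5 and 1.77 CPM, and Col1a1, a collagen of stromal cells, at 0.286 and 0 CPM. The sorted libraries thus carried high monocyte markers and almost no reads of these other markers. Fewer cells of a type and less RNA per cell cannot be told apart in such bulk libraries.

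The starts of 3 genes are shown first, because each holds a motif of a pathway whose genes moved or separated the day 1 libraries. They are 200 bases around the start of a gene, from 170 before to 30 after it, from RefSeq on GRCm38.p6, with motif matches in capitals.
Cish, chr9:107296489-107296688, + strand: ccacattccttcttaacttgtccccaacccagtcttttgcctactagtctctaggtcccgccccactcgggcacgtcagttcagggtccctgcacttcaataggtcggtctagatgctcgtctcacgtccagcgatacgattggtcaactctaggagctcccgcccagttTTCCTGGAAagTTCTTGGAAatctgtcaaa
Ifit3, chr19:34583359-34583558, + strand: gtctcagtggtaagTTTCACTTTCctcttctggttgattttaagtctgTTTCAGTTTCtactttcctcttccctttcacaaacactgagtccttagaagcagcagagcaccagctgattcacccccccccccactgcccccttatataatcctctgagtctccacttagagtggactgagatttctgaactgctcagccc
H2-Eb1, chr17:34305697-34305896, + strand: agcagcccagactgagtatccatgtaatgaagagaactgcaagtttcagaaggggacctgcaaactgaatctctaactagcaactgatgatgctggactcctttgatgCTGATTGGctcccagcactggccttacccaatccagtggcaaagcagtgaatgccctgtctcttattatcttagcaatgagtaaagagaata
Cish encodes a STAT5-induced inhibitor of cytokine receptors, and its window holds 2 matches to TTCNNNGAA, the core that STAT proteins bind, the first at the first transcribed base. Ifit3 encodes an interferon-induced antiviral protein, and its window holds 2 matches to the interferon-stimulated response element, searched as GAAA, 2 bases of any kind and GAAA, or the reverse complement. H2-Eb1 encodes a chain of MHC class II, and its window holds the Y box CTGATTGG (searched with its reverse complement CCAATCAG), which the factor NF-Y binds in class II promoters. Of 9768 tested genes with a promoter in the table (250 bases before to 50 after the start), 8.18% held the STAT core, 3.97% the interferon element and 6.59% the Y box, on either strand. The interferon element was in 18 of 29 promoters of the interferon-stimulated list (62.1%), and the Y box in 4 of 8 promoters of class II chains and loading genes. The STAT core was in 7.82% of 831 promoters of genes called higher at day 1 and in 7.485% of 668 of genes called lower. Among other starts searched for the motif of their pathway, Socs3, Oas3 and H2-Aa held 1 match each and Socs1, Irf7 and Oasl2 held none. The STAT core was in 30.8% of 13 promoters of the GM-CSF receptor and STAT5 list and in 5.88% of 17 of the IL-4 list. The Y box was in 6.50% of promoters of genes called higher and in 10.3% of those called lower. These matches are a description of letters in these windows.

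Over the first day, 1081 of 14034 tested genes rose in KO cells (7.7%) and 861 fell (6.14%), by edgeR's quasi-likelihood test at an adjusted p below 0.05. These 2 shares are the background for each count of list members called with both libraries below. With replicate 2 as the only KO day 1 library, 1074 of 15159 genes rose (7.08%) and 897 fell (5.92%), and the lone library is then assumed to vary like the other groups. Both fits called 879 genes higher and 617 lower, and no gene was called in opposite directions. The median log2 fold change was 2.17 among the genes that rose and -1.94 among those that fell, against 0.11 over all genes. Of the genes that rose, 1078 were higher in both same-numbered pairs, and of those that fell, all 861 were lower in both. The calls came from these same libraries, so this agreement follows largely from the calls and is a description. A stricter measure, used for lists below, asks that both day 1 libraries lie beyond both monocyte libraries. By it, 32.4% of all tested genes were higher and 27.4% lower. The change was smaller in pair 1 than in pair 2 for 802 of the 1081 genes that rose and 614 of the 861 that fell. With the experiment as a block, 1576 genes rose and 1419 fell. Leaving out KO monocytes replicate 1, KO monocytes replicate 2 or KO day 1 replicate 2 left 348, 303 and 446 genes higher and 315, 297 and 276 lower, and the counts given for gene lists below after the words "3 omissions" follow this order of libraries.

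**Figure D1:**
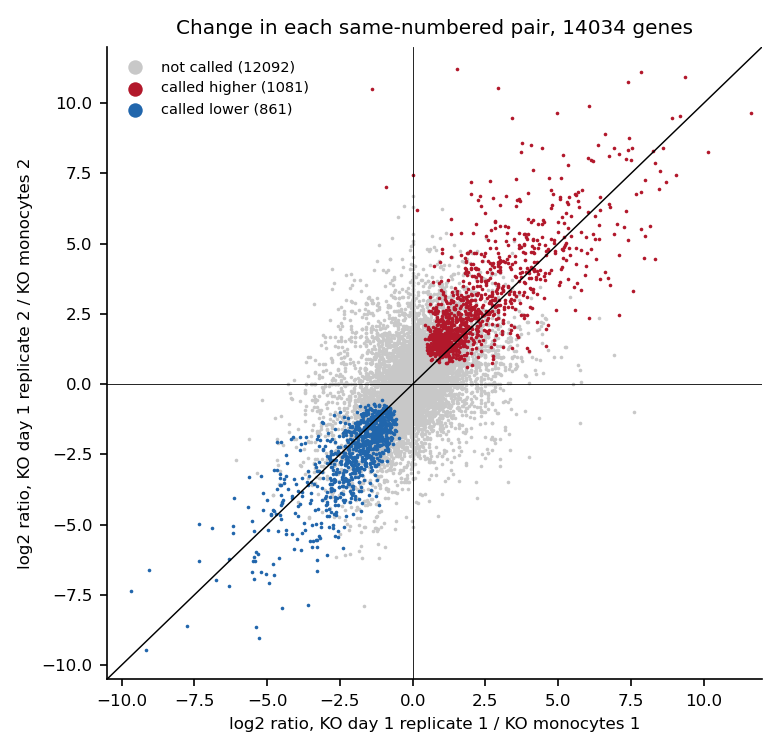
Each point is 1 of 14034 tested genes, with the log2 ratio of KO day 1 to KO monocytes in pair 1 on the x axis and in pair 2 on the y axis, and the diagonal marks equal change. The 1081 genes called higher (red) and 861 called lower (blue) lie mostly on the side of the diagonal nearer the y axis, where pair 2 moved further.

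The 12 largest rises went from almost no reads to clear expression. Creb5, a bZIP transcription factor on chromosome 6:53287270-53700376, had no reads in either KO monocyte library and was at 82.0 and 122 CPM in KO day 1, at least 999-fold higher against a floor of 3 reads over the group (adjusted p = 4.67e-05). Synpo, an actin-associated protein, also had none in monocytes and was at 31.7 and 58.5 CPM, at least 451-fold higher. P2rx5, an ATP-gated ion channel, rose from no reads to 20.3 and 58.8 CPM, at least 411-fold. These 3 genes were read in both day 1 libraries and in neither monocyte library. Spint1, an inhibitor of serine proteases at the cell surface, went from 0.0714 and 0.213 to 764 and 309 CPM and was higher in the library labelled KO day 1 replicate 1 than in replicate 2. Klrb1b, a lectin-like receptor, and Cxcl3, a neutrophil-attracting chemokine, rose from no reads to 30.7 and 42.9 CPM and to 39.6 and 19.7 CPM. Mmp12, the macrophage elastase, rose from 0.5 and 0.567 to 440.4 and 1449.7 CPM (log2 fold change 10.76 ± 0.98, adjusted p = 0.000146). Plet1, Cav1, Prr15, Cd209c and Retnla completed the 12. Cav1, which coats caveolae, was at 2.08 and 52.1 CPM in KO day 1 and Retnla at 2.25 and 253 CPM, so both were many times lower in the library labelled KO day 1 replicate 1 than in replicate 2. The call of Retnla was lost in the 3 omissions (adjusted p = 0.0883, 0.107 and 0.0651). The calls of Cav1, Plet1 and Cd209c were lost without KO monocytes replicate 1 or 2 (adjusted p = 0.0759 and 0.0769 for Cav1, 0.054 and 0.0526 for Plet1, 0.0572 and 0.0584 for Cd209c).

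The 12 largest falls held AP-1 genes, granule proteases and globins. Ace, the angiotensin-converting enzyme, fell from 37.1 and 88.6 CPM to 0 and 0.0547 CPM (log2 fold change -10.49 ± 0.77, adjusted p = 8.26e-05). Fos fell from 1676 and 1170.0 to 2.77 and 1.48 CPM (-9.41 ± 1.17, adjusted p = 0.000922) and Fosb from 91.7 and 21.8 to 0 and 0.0547 CPM (-10.34 ± 1.74, adjusted p = 0.00507). Both encode subunits of AP-1, and in each case the lowest monocyte library was far above the highest day 1 library. The haemoglobin chain gene Hba-a1 was at 20.2 and 5.89 CPM in KO monocytes and had no reads at day 1, at least 129.5-fold lower over the group. The other genes of this group were Prtn3, Ctsg, Hbb-bs, Nr4a1, Hpgd, Calhm6, Hist1h2bg and Frat2. The choice of the 12 required a fall in both pairs. Globin genes have near-identical copies, and multimapping reads were not counted. The call of Calhm6 was lost in the 3 omissions (adjusted p = 0.0612, 0.0536 and 0.104).

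**Figure D2:**
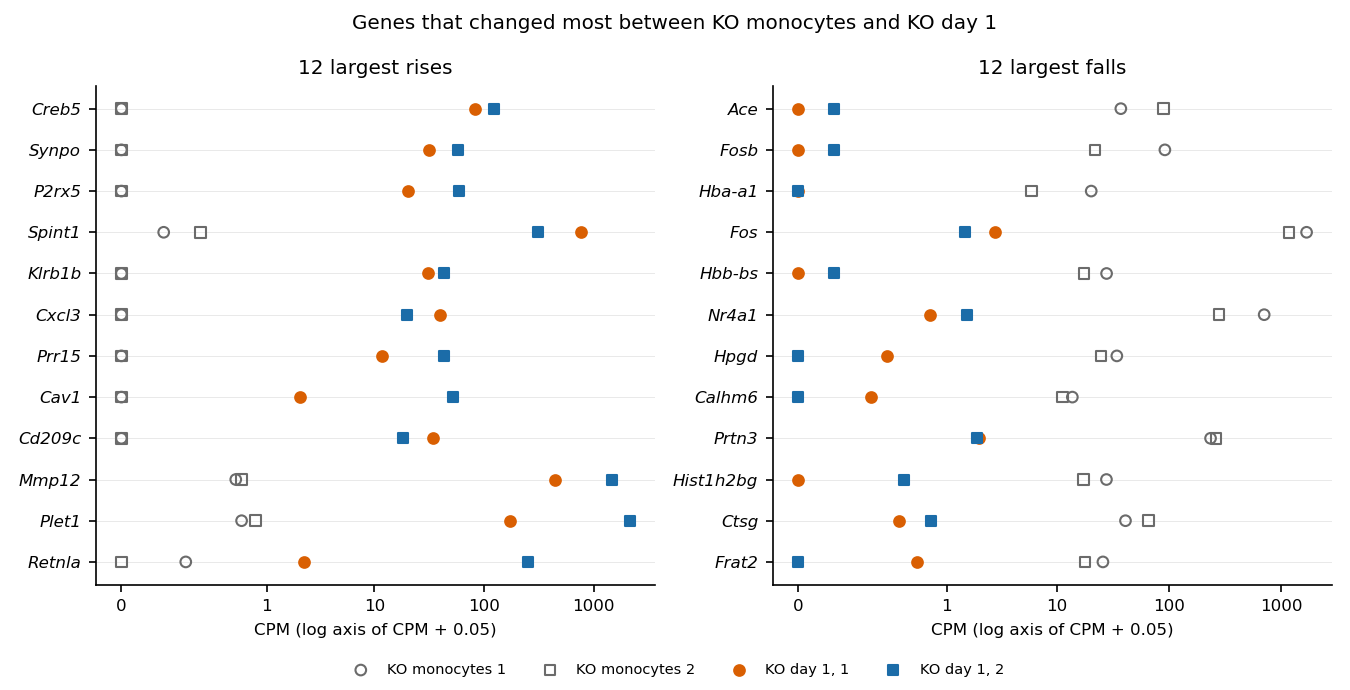
CPM (log axis of CPM + 0.05) of the 12 largest rises and 12 largest falls, with open symbols for KO monocytes and filled symbols for the libraries labelled KO day 1. In each gene both filled symbols lie on the same side of both open symbols, and for Retnla and Cav1 the orange point of replicate 1 (2.25 and 2.08 CPM) lies far below the blue point of replicate 2 (253 and 52.1 CPM).

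Genes of GM-CSF signalling rose in both day 1 libraries. Of 18 members of the receptor and STAT5 list, all tested, 8 rose and 2 fell, with a median log2 fold change of 1.53, and 8 rose and 1 fell with replicate 2 alone. Csf2rb, the signalling chain of the receptor, went from 488 and 521 to 4086 and 1908 CPM (2.57 ± 0.47, adjusted p = 0.00589), and its mouse paralog Csf2rb2 from 84.9 and 98.4 to 1642 and 452 CPM. The ligand-binding chain Csf2ra was at 425 and 246 CPM before and 505 and 341 CPM after (adjusted p = 0.721). Signalling and binding chains of 1 receptor thus gave different results, the first past the threshold and the second not. Cish, whose start is printed above, went from 1.43 and 2.41 to 581 and 492 CPM (8.12 ± 0.57, adjusted p = 4.67e-05). Socs2 went from 0 and 0.213 to 54.7 and 89.8 CPM (9.27 ± 0.81, adjusted p = 0.000117) and Socs1 from 3 and 3.83 to 78.9 and 110.4 CPM (4.79 ± 0.54, adjusted p = 0.000564). These 3 encode feedback inhibitors that STAT proteins induce. The kinase Jak2 rose from 113 and 78.1 to 475 and 833 CPM and the growth regulator Myc from 8.71 and 5.96 to 94.9 and 118 CPM. Stat5b fell from 197 and 196 to 80 and 50.2 CPM (-1.60 ± 0.31, adjusted p = 0.00813), while Stat5a was at 70.5 and 76.7 CPM before and 74.0 and 58.0 after (adjusted p = 0.783). The other member that fell, the cytokine gene Osm, went from 230.1 and 147 to 11 and 25.6 CPM and was not called with replicate 2 alone (adjusted p = 0.0784). In the 3 omissions, 6, 6 and 8 members were called higher and 0, 0 and 0 lower. The call of Csf2rb was lost without KO monocytes replicate 1 or 2 (adjusted p = 0.0701 and 0.063). The calls of Stat5b and Osm were lost in the 3 omissions (adjusted p = 0.0524, 0.055 and 0.0825 for Stat5b, 0.0882, 0.0556 and 0.061 for Osm). In all 3 feedback genes and in both beta chains, the lower day 1 library was well above the higher monocyte library.

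Several genes of alternative activation, which IL-4 induces, rose too, some of them far less in the library labelled KO day 1 replicate 1, while no receptor or signalling gene of the list passed the test as higher. Of 23 tested members of 25, 9 rose and 2 fell (median log2 fold change 2.07), and 10 rose and 1 fell with replicate 2 alone. Mgl2, a galactose-type lectin, went from 2.71 and 3.12 to 279 and 1591 CPM (8.32 ± 1.04, adjusted p = 0.000929). Mrc1, the mannose receptor, went from 23.5 and 9.43 to 112 and 166 CPM (3.08 ± 0.50, adjusted p = 0.00338). For Mrc1 the day 1 libraries lay close together, and for Mgl2 replicate 2 was several times higher. Arg1, which turns arginine into ornithine, went from 0.0714 and 0.0709 to 2.42 and 171 CPM (10.05 ± 1.97, adjusted p = 0.0084). Ccl24, an eosinophil-attracting chemokine, went from 0.429 and 0.0709 to 1.56 and 575 CPM, a log2 fold change of 10.12 ± 2.23 (adjusted p = 0.0144) in the fit with both libraries and 11.07 (adjusted p = 8.06e-05) in the fit with replicate 2 alone. Alox15, a lipoxygenase, was at 0.214 and 1.13 CPM in monocytes and 0.433 and 50.9 CPM at day 1, and passed the threshold only with replicate 2 alone (adjusted p = 0.0624 and 0.00572). In these 3 genes the library labelled KO day 1 replicate 1 was below 5 CPM while replicate 2 and both WT day 1 libraries were at 49.2 CPM or more. Egr2, a zinc finger factor, rose from 3.07 and 1.35 to 84.0 and 242 CPM (6.202 ± 1.22, adjusted p = 0.00835). The kinase Jak3 fell from 40.9 and 36.9 to 15.8 and 5.31 CPM, and Stat6 itself was at 359.8 and 384 CPM before and 280.0 and 209 CPM after (adjusted p = 0.143). Chil3, a chitinase-like protein, had the same pattern at a higher level, at 1507 and 1686 CPM in monocytes and 277 and 4238 CPM at day 1, so that replicate 1 lay below both monocyte libraries and replicate 2 above them (adjusted p = 0.758). Across the same omissions 3, 3 and 6 members were called higher and 0, 0 and 0 lower. Among the members called lower was the zinc finger factor Klf4, at 469 and 333 and then 66.8 and 63.7 CPM (-2.62 ± 0.67, adjusted p = 0.0276). With the experiment as a block Ccl24 was not called (adjusted p = 0.0566), and Klf4 was not called with replicate 2 alone (adjusted p = 0.0835). The calls of Arg1 and Egr2 were lost without KO monocytes replicate 1 or 2 (adjusted p = 0.0842 and 0.0853 for Arg1, 0.0693 and 0.098 for Egr2). The calls of Ccl24, Jak3 and Klf4 were lost in the 3 omissions (adjusted p = 0.1, 0.127 and 0.171 for Ccl24, 0.0955, 0.0786 and 0.0854 for Jak3, 0.121, 0.0777 and 0.161 for Klf4).

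Some genes that mark dendritic cells rose and others fell. Of 18 tested members of 19 in the identity list, 7 rose and 4 fell, and 6 rose and 3 fell with replicate 2 alone. Itgax, which encodes CD11c, went from 1.79 and 3.26 to 602 and 1087 CPM, a log2 fold change of 8.38 ± 0.56 (adjusted p = 4.67e-05). Zbtb46, a factor of conventional dendritic cells, went from 0.143 and 0 to 5.37 and 33.6 CPM (7.91 ± 1.07, adjusted p = 0.00147), and Batf3, an AP-1 family partner of IRF4 and IRF8, from 3.21 and 4.96 to 10.6 and 125 CPM (4.05 ± 0.91, adjusted p = 0.0157). Both genes rose in each library, and replicate 2 ended several times above replicate 1. Irf4, needed for dendritic cells from monocytes in mice, rose from 37.6 and 19.1 to 235 and 546 CPM (3.79 ± 0.54, adjusted p = 0.00189). Irf8, a factor of monocytes and of another dendritic cell branch, fell from 455 and 562 to 85.9 and 9.63 CPM, a log2 change of -3.42 ± 0.98 (adjusted p = 0.042) in the fit with both libraries and -5.76 (adjusted p = 0.00836) in the fit with replicate 2 alone. The paired factors IRF4 and IRF8 therefore moved in opposite directions. Id2 rose from 70.1 and 95.2 to 299 and 486 CPM and Id3 from 3.93 and 3.05 to 52.3 and 49.5 CPM (3.86 ± 0.49, adjusted p = 0.000982). Both encode inhibitors of E proteins. Bcl11a and Flt3, which mark dendritic cell progenitors, fell from 41.1 and 31.2 to 1.65 and 1.48 CPM and from 12.1 and 9.86 to 0.346 and 0.821 CPM, and the peptidase gene Dpp4 from 25.1 and 24.8 to 2.34 and 3.06 CPM. Cd209a, a mouse DC-SIGN relative, rose from 5.36 and 8.44 to 75.5 and 76.6 CPM, nearly the same in both day 1 libraries (3.46 ± 0.95, adjusted p = 0.037). Cd209a and Flt3 were not called with replicate 2 alone (adjusted p = 0.0617 and 0.082). The calls of Cd209a and Irf8 were lost in the 3 omissions and without WT day 1 replicate 1 or 2 (adjusted p = 0.204, 0.161, 0.112, 0.0574 and 0.0568 for Cd209a, 0.111, 0.144, 0.156, 0.0638 and 0.0631 for Irf8). The calls of Batf3 and Flt3 were lost in the 3 omissions (adjusted p = 0.126, 0.0965 and 0.153 for Batf3, 0.0876, 0.0732 and 0.0907 for Flt3). Sirpa and Spi1 did not pass (adjusted p = 0.639 and 1). The identity counts in the 3 omissions were 5, 4 and 5 higher and 2, 2 and 2 lower.

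In the maturation list, which holds costimulatory, checkpoint and migration genes, 11 of 32 members rose and none fell (median log2 fold change 2.49). With replicate 2 alone, 10 rose and 1 fell and the median was 0.53. Pdcd1lg2 and Cd274, the ligands of PD-1, went from 0.143 and 0.142 to 53.3 and 100.6 CPM (8.97 ± 0.62, adjusted p = 4.67e-05) and from 4.36 and 8.08 to 153 and 139.9 CPM (4.56 ± 0.45, adjusted p = 0.000273). Cd80, a ligand of CD28, rose from 4.93 and 7.45 to 29.96 and 63.1 CPM (2.91 ± 0.81, adjusted p = 0.0388). Traf1, an adaptor of TNF receptors, rose from 2.14 and 1.77 to 45.4 and 56.1 CPM (4.69 ± 0.30, adjusted p = 4.67e-05). All 4 were higher in both day 1 libraries than in either monocyte library. Other members were read mainly in the library labelled KO day 1 replicate 1. Fscn1, the actin bundler of migrating dendritic cells, was at 0 and 0.496 CPM in monocytes and 33.2 and 0.164 CPM at day 1 (adjusted p = 0.0678). Ccr7, the receptor that guides dendritic cells to lymph nodes, was at 0.286 and 0 CPM and then 15.4 and 0.164 CPM (adjusted p = 0.0761). Cacnb3, a calcium channel subunit, was at 0.357 and 0.142 CPM and then 9.61 and 0.274 CPM (adjusted p = 0.0761). These 3 genes were chosen after their values were seen, and in each the library with 76 reads of Nr4a3 was high and the library with none was below 1 CPM. WT day 1 held 24.5 and 22.2 CPM of Fscn1, 10.1 and 7.34 CPM of Ccr7 and 11.97 and 11.1 CPM of Cacnb3, all on the side of the library labelled KO day 1 replicate 1. The 3 omissions left 8, 6 and 11 members higher. The call of Cd80 was lost in the 3 omissions and without WT day 1 replicate 1 or 2 (adjusted p = 0.21, 0.159, 0.208, 0.0612 and 0.0608).

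Many chemokine ligands rose, and some of the receptors fell. The shares called higher and lower were 50% and 5% of ligands and 15.4% and 23.1% of receptors. Of all tested genes, 7.7% rose and 6.14% fell. Of 20 tested ligands of 23, 10 rose and 1 fell (median log2 fold change 4.81), and with replicate 2 alone 10 rose and none fell (median 3.08). Ccl17, which attracts CCR4-bearing T cells, went from 0.643 and 1.21 to 136 and 2369.6 CPM (10.39 ± 1.40, adjusted p = 0.00144). Ccl22, a ligand of the same receptor, went from 0.643 and 1.06 to 79.3 and 19.3 CPM (5.83 ± 0.72, adjusted p = 0.00086). The 2 ligands of CCR4 therefore ranked the day 1 libraries in opposite order, Ccl17 with replicate 2 far above and Ccl22 with replicate 1 above. Cxcl16 rose from 1 and 2.48 to 89.4 and 96.1 CPM, and Ccl7, a monocyte chemokine, from 0.429 and 0.0709 to 43.6 and 59.3 CPM. Pf4, a platelet chemokine that macrophages also make, rose from 0.0714 and 0.0709 to 85.3 and 29.4 CPM (9.45 ± 1.08, adjusted p = 0.000598). Ccl3 fell from 90.4 and 52.0 to 3.38 and 12.3 CPM (-3.16 ± 0.79, adjusted p = 0.0245). Of 13 tested receptors, 2 rose and 3 fell, and 2 rose and 2 fell with replicate 2 alone. Cxcr4, which holds cells in bone marrow, fell from 214 and 225 to 14.3 and 11.5 CPM (-4.09 ± 0.84, adjusted p = 0.0106). Cx3cr1, the fractalkine receptor of patrolling monocytes, fell from 279 and 265 to 7.10 and 0.328 CPM (-6.25 ± 1.46, adjusted p = 0.0186). Cxcr2 was at 2.43 and 0.922 CPM and then 1.21 and 142 CPM, high in replicate 2 only, and its call was lost with the experiment as a block (adjusted p = 0.138). In the 3 omissions 7, 8 and 9 ligands were called higher, 1, 1 and 2 receptors higher and 1, 1 and 0 receptors lower. Ccl3 was not called with replicate 2 alone (adjusted p = 0.0847). The call of Cx3cr1 was lost in the 3 omissions (adjusted p = 0.0679, 0.0663 and 0.0837). The call of Cxcr2 was lost in the 3 omissions and without WT day 1 replicate 1 or 2 (adjusted p = 0.145, 0.215, 0.816, 0.0569 and 0.0563). The call of Cxcr4 was lost without KO day 1 replicate 2 (adjusted p = 0.0897). The call of Ccl3 was lost without KO monocytes replicate 1 or 2 (adjusted p = 0.116 and 0.062).

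MHC class II genes rose by similar amounts in both libraries. Of 17 members, 8 rose and none fell in either fit, with a median log2 fold change of 1.99 and, with replicate 2 alone, 2.03. The 8 were the chain genes H2-Aa, H2-Ab1 and H2-Eb1, the invariant chain gene Cd74, the transactivator Ciita and the loading genes H2-DMa, H2-DMb1 and H2-DMb2. H2-Eb1, whose start is printed above, went from 9.86 and 10.9 to 1621 and 789 CPM (6.86 ± 0.55, adjusted p = 7.94e-05). Cd74 went from 178 and 183 to 6366 and 4087 CPM (4.86 ± 0.39, adjusted p = 7.94e-05), and Ciita from 6.64 and 9.36 to 373 and 263 CPM (5.31 ± 0.44, adjusted p = 8.88e-05). For these 3 genes the library labelled KO day 1 replicate 1 was the higher of the day 1 libraries, and neither came near the monocyte values. The loading gene H2-DMb1 went from 65.4 and 72.5 to 478 and 722 CPM, with replicate 2 the higher. Ctss, the protease that trims the invariant chain, was at 1332 and 1276 CPM before and 1346 and 1288 CPM after (adjusted p = 0.997), and the promoter factors Rfx5, Rfxap and Rfxank did not pass either. Members called higher in the 3 omissions numbered 7, 8 and 8. The call of H2-DMa was lost without KO monocytes replicate 1 (adjusted p = 0.0649).

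MHC class I genes leaned the other way, with 10.5% called higher and 21.1% lower, against 7.7% and 6.14% of all tested genes. In WT cells 10.1% of all tested genes fell. Of 19 members, 2 rose and 4 fell, and 1 rose and 4 fell with replicate 2 alone, while in WT cells 7 of the 19 fell. H2-D1, a classical class I heavy chain, went from 2031 and 2248 to 1016 and 769 CPM (-1.26 ± 0.31, adjusted p = 0.0229), and Tap1, a subunit of the peptide transporter, from 298 and 285 to 168 and 67.0 CPM (-1.31 ± 0.39, adjusted p = 0.0492). H2-M3, which presents formylated peptides, went from 45.7 and 43.6 to 22.3 and 23.9 CPM. In H2-D1 and Tap1 the library labelled KO day 1 replicate 1 lay between the monocytes and replicate 2. B2m, the light chain, was at 1429 and 1552 CPM and then 1007 and 715 CPM (adjusted p = 0.3). Calr, a chaperone of the peptide-loading complex and of the endoplasmic reticulum, was 1 of the 2 that rose, from 625 and 731 to 2125 and 1971 CPM (1.595 ± 0.30, adjusted p = 0.00629). In turn over the 3 omissions, 0, 0 and 1 members were called higher and 0, 0 and 0 lower. H2-M3 was not called with replicate 2 alone (adjusted p = 0.0848). The calls of H2-D1 and H2-M3 were lost in the 3 omissions (adjusted p = 0.0878, 0.135 and 0.167 for H2-D1, 0.126, 0.128 and 0.132 for H2-M3). The call of Tap1 was lost in the 3 omissions and without WT day 1 replicate 1 or 2 (adjusted p = 0.167, 0.169, 0.274, 0.0709 and 0.0706). The call of Calr was lost without KO monocytes replicate 1 or 2 (adjusted p = 0.0765 and 0.055). Tap1 stood at the threshold, with an adjusted p above it also by RLE or upper-quartile normalization (0.0505 and 0.0578).

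Some lectin receptors and 1 Fc receptor rose. Of 20 tested C-type lectin receptors of 21, 5 rose (25%, against 7.7% of all tested genes) and 1 fell, 5 rose and none fell with replicate 2 alone, and 8 rose and 1 fell with the experiment as a block. Clec4n, which encodes Dectin-2, a receptor for fungal mannans, went from 0.857 and 3.40 to 1161 and 1110.4 CPM (9.05 ± 0.78, adjusted p = 0.000112). Clec4d went from 3 and 6.52 to 148 and 74.2 CPM (4.54 ± 0.98, adjusted p = 0.013). Clec7a, which encodes Dectin-1, was at 417 and 271 CPM and then 360.4 and 507 CPM (adjusted p = 0.663). The 3 omissions gave 3, 3 and 4 members higher. Fcgr2b, the inhibitory IgG receptor, was the 1 member of 7 tested Fc receptors that rose, in either fit, from 223 and 182 to 1387 and 1622 CPM (2.89 ± 0.33, adjusted p = 0.000581). For Clec4n and Fcgr2b the 2 libraries labelled KO day 1 lay close together, and WT day 1 held 639.8 and 1276 CPM and 1319 and 1913 CPM. The call of Clec4d was lost without KO monocytes replicate 1 or 2 (adjusted p = 0.116 and 0.0713).

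Genes of sorted monocytes fell. In the classical list 10 of 25 members fell and none rose (median log2 fold change -2.28), and 11 fell with replicate 2 alone (median -3.31). F13a1, a subunit of coagulation factor XIII, went from 3429 and 3570.2 to 79.1 and 44.8 CPM (-5.82 ± 0.42, adjusted p = 4.67e-05). Plac8 went from 1521 and 1739.7 to 36.5 and 4.16 CPM (-6.33 ± 0.99, adjusted p = 0.00303). In both genes the day 1 libraries were far below both monocyte libraries, with the library labelled KO day 1 replicate 1 the higher of them. Ly6c2 was at 298 and 60.5 CPM at day 1, a log2 change of -3.21 ± 0.99 (adjusted p = 0.0566) in the fit with both libraries and -4.82 (adjusted p = 0.0337) in the fit with replicate 2 alone. With the experiment as a block its adjusted p was 0.0298. Ccr2 was at 1232 and 2462 CPM at day 1 (adjusted p = 0.871). Fn1, fibronectin, went from 9151 and 8585 to 1579 and 788 CPM (adjusted p = 0.0515, and 0.000325 with the block). Lyz2 was at 15090 and 19232 and then 11499 and 6160.0 CPM (adjusted p = 0.538). Of the 25 classical members, the library labelled KO day 1 replicate 1 was higher than replicate 2 in 21, against 44.3% of all tested genes. Classical calls in the 3 omissions numbered 4, 5 and 3.

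Nonclassical markers and granule genes fell with them. Of 16 tested nonclassical members of 17, 7 fell and 1 rose, 9 fell and 2 rose with replicate 2 alone, and 11 fell with the block. Ceacam1, an adhesion receptor, went from 173 and 149 to 26.7 and 14.1 CPM (-2.99 ± 0.41, adjusted p = 0.00153), and Spn, which encodes CD43, from 407 and 496 to 105 and 59.3 CPM (-2.46 ± 0.39, adjusted p = 0.00325). The member that rose was the fatty acid receptor gene Cd36, at 0.643 and 3.40 and then 7.27 and 369 CPM. The call of Cd36 was lost in the 3 omissions (adjusted p = 0.129, 0.077 and 0.235). The 3 omissions left 5, 5 and 5 members lower. Of 16 granule genes, 4 fell and none rose, and the counts were the same with replicate 2 alone and in each of the 3 omissions. Mpo, myeloperoxidase, went from 148 and 136 to 1.90 and 3.94 CPM (-5.58 ± 0.40, adjusted p = 4.67e-05), and Prtn3, proteinase 3, from 234 and 261 to 1.99 and 1.91 CPM (-6.98 ± 0.47, adjusted p = 4.67e-05). Elane, neutrophil elastase, went from 124 and 112 to 2.51 and 0.93 CPM and Ctsg, cathepsin G, from 40.9 and 65.8 to 0.346 and 0.711 CPM. For these 4 proteins of primary granules, made by progenitors and promonocytes, the day 1 libraries lay within 5 CPM. The same 4 genes mark progenitors, and fewer such cells and less of these transcripts per cell cannot be told apart.

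Complement, efferocytosis and protease genes rose. Of 24 tested macrophage genes of 29, 9 rose and none fell, and 7 rose and 1 fell with replicate 2 alone. C1qa, C1qb and C1qc, which encode the chains of complement C1q, went from 2.00 and 0.709, 2.14 and 1.21 and 0.643 and 1.70 CPM to 79.8 and 46.7, 81.0 and 84.7 and 50.5 and 34.4 CPM. C1qb had the smallest adjusted p of the list (5.62 ± 0.53, adjusted p = 0.000197). Axl, a receptor for apoptotic cells, went from 28.2 and 35.5 to 479 and 936 CPM (4.47 ± 0.64, adjusted p = 0.00183). Gpnmb and Stab1, both of macrophages, were at 127 and 29.1 CPM and 118 and 24.02 CPM at day 1, several times higher in the library labelled KO day 1 replicate 1 than in replicate 2 and in WT day 1 (15.6 and 25.4 and 18.3 and 37.9 CPM). Stab1 was not called with replicate 2 alone (adjusted p = 0.059). Apoe, an apolipoprotein, went from 183 and 129 to 50.6 and 3.83 CPM and passed only with replicate 2 alone (adjusted p = 0.0806 and 0.00137). Of 17 tested matrix proteases and inhibitors of 20, 8 rose and 1 fell, and 7 rose and 1 fell with replicate 2 alone. Adam8 went from 17.0 and 16.9 to 385 and 978 CPM (5.33 ± 0.49, adjusted p = 0.000146), and Mmp14, a membrane-bound collagenase, from 1.14 and 1.35 to 329 and 58.7 CPM (7.27 ± 0.93, adjusted p = 0.00108). Adam8 was lower in the library labelled KO day 1 replicate 1 than in all 3 other day 1 libraries (1618 and 1089 CPM in WT), and Mmp14 higher than in all 3 (67.6 and 70.5 CPM in WT). In the 3 omissions 6, 5 and 8 macrophage genes and 5, 4 and 6 protease genes were called higher. The calls of Gpnmb and Stab1 were lost without KO monocytes replicate 1 or 2 (adjusted p = 0.0642 and 0.0851 for Gpnmb, 0.117 and 0.132 for Stab1).

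Immediate early genes, which many stimuli induce within minutes, were high in the sorted libraries. Of 24 tested members of 25, 10 fell and 2 rose (median log2 fold change -1.63), and 8 fell and 4 rose with replicate 2 alone. Dusp1, a phosphatase of MAP kinases, went from 334 and 266 to 6.49 and 12.6 CPM (-4.96 ± 0.59, adjusted p = 0.000715), and Ier2 from 303 and 308 to 63.6 and 43.5 CPM (-2.51 ± 0.30, adjusted p = 0.0007). Zfp36, which destabilises cytokine mRNA, went from 1478 and 1066 to 121 and 89.0 CPM (-3.60 ± 0.52, adjusted p = 0.002). Nr4a1, the closest relative of Nr4a3 that was abundant in monocytes, went from 703 and 277 to 0.693 and 1.53 CPM (-8.72 ± 1.09, adjusted p = 0.000936). Nr4a2 was at 21.4 and 4.25 CPM and then 0.26 and 0.985 CPM (-4.27 ± 1.55, adjusted p = 0.0926). Apart from Ier2, the first monocyte library was the higher in these genes and in Fos, and both day 1 libraries lay below both monocyte libraries. Jun was at 426 and 306 and then 147 and 115 CPM (adjusted p = 0.0716, and 0.0096 with the experiment as a block). Egr2 and Ier3 were the members that rose, Ier3 from 20.4 and 27.2 to 81.0 and 98.1 CPM (1.91 ± 0.35, adjusted p = 0.00635). The call of Egr2 was lost without KO monocytes replicate 1 or 2 (adjusted p = 0.0693 and 0.098). The call of Ier3 was lost without KO monocytes replicate 1 (adjusted p = 0.0749). The 3 omissions left 7, 7 and 8 members lower.

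Most cell cycle genes fell. Of 42 members, 30 fell and 3 rose (median log2 fold change -1.65), and 24 fell and 3 rose with replicate 2 alone. Both day 1 libraries were below both monocyte libraries in 36 of the 42, against 27.4% of all tested genes. Kif11, a mitotic kinesin, went from 219.7 and 215 to 45.5 and 53.5 CPM (-2.13 ± 0.26, adjusted p = 0.00086). Ccnb2, cyclin B2, went from 171 and 201 to 33.9 and 19.8 CPM (-2.80 ± 0.35, adjusted p = 0.000865), and Cenpa, the centromeric histone, from 148 and 190.2 to 37.6 and 39.9 CPM (-2.12 ± 0.30, adjusted p = 0.00163). Mki67, the proliferation antigen, went from 1056 and 942 to 296 and 300.4 CPM (-1.74 ± 0.33, adjusted p = 0.00744). Kif11, Cenpa and Mki67 thus fell by similar factors in both libraries, while Ccnb2 fell further in replicate 2. Pcna, the replication clamp, was at 222 and 233 and then 96.6 and 161 CPM (adjusted p = 0.0902, and 0.0262 with the block). The members that rose were G1 regulators: Ccnd1 from 1.5 and 0.851 to 80.9 and 19.5 CPM (5.40 ± 0.90, adjusted p = 0.00389), Ccnd2 from 0.0714 and 0.993 to 77.1 and 25.4 CPM (6.56 ± 1.38, adjusted p = 0.0115) and the inhibitor Cdkn1a from 136 and 96.5 to 509 and 503 CPM (2.12 ± 0.37, adjusted p = 0.0045). Across the same omissions 23, 17 and 15 members were called lower and 2, 0 and 3 higher. The calls of Ccnd1 and Cdkn1a were lost without KO monocytes replicate 2 (adjusted p = 0.0572 for Ccnd1, 0.0678 for Cdkn1a). The call of Ccnd2 was lost without KO monocytes replicate 1 or 2 (adjusted p = 0.1 and 0.0554). The call of Mki67 was lost without KO monocytes replicate 1 or KO day 1 replicate 2 (adjusted p = 0.0505 and 0.0567).

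Survival genes and p53 targets rose in part. Of 17 tested BCL2 family members of 20, 5 rose and 3 fell, in both fits. Bcl2a1d, a prosurvival gene with near-identical copies in the mouse, went from 0.714 and 1.91 to 222 and 319 CPM (7.67 ± 0.53, adjusted p = 4.67e-05), and its copies Bcl2a1a and Bcl2a1b also rose, with reads shared between copies not counted. Bcl2 went from 6.64 and 7.59 to 36.3 and 42.1 CPM (2.46 ± 0.28, adjusted p = 0.000598), and Mcl1 was at 806 and 639 and then 669.7 and 521 CPM (adjusted p = 0.617). The killer gene Bax rose from 65.4 and 88.8 to 208 and 243 CPM and Bmf fell from 80.8 and 67.2 to 23.7 and 5.09 CPM. Prosurvival and proapoptotic members were therefore found among the rises. Of 15 p53 targets, 5 rose and none fell in both fits, among them Phlda3, from 0 and 0.213 to 26.1 and 18.4 CPM (7.56 ± 0.77, adjusted p = 0.000492). The 3 omissions left 4, 5 and 5 BCL2 family members higher and 0, 1 and 1 lower, and 4, 3 and 5 p53 targets higher. The call of Bax was lost without KO monocytes replicate 1 (adjusted p = 0.0733). The call of Bmf was lost in the 3 omissions (adjusted p = 0.121, 0.0928 and 0.11).

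Genes that build ribosomes rose, less in the library labelled KO day 1 replicate 1. Of 27 members, 20 rose and none fell (median log2 fold change 1.66), 21 rose with replicate 2 alone (median 1.95), and in all 27 both day 1 libraries were above both monocyte libraries, against 32.4% of all tested genes. Gnl3, nucleostemin, went from 11.9 and 7.73 to 53.6 and 139.8 CPM (3.30 ± 0.46, adjusted p = 0.00162). Ncl, nucleolin, went from 370.0 and 325 to 686 and 1573 CPM (1.70 ± 0.37, adjusted p = 0.0127), and Npm1, nucleophosmin, from 321 and 269.5 to 442 and 1216 CPM (adjusted p = 0.0574, and 0.0267 with the block). In none of the 27 was the library labelled KO day 1 replicate 1 above replicate 2, against 44.3% of all tested genes. In 26 it was below both WT day 1 libraries, against 35.3% of all tested genes. The subunits of oxidative phosphorylation shared this trait. In 0 of those 30 was it above replicate 2, and in 26 (86.7%) it was below both WT day 1 libraries. Transcripts of ribosomal proteins took 3.90% and 6.65% of gene reads in KO day 1 and 4.28% and 6.87% in WT day 1, so replicate 1 was the lower in both genotypes, and the part of this share in the list was not tested. In the 3 omissions 7, 5 and 7 members were called. The call of Ncl was lost in the 3 omissions (adjusted p = 0.083, 0.115 and 0.103).

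Stress response genes of the endoplasmic reticulum rose as well, and those of the oxidant response moved both ways. Of 20 unfolded protein response genes, 10 rose and 1 fell, and 8 rose and 1 fell with replicate 2 alone. Hspa5, the chaperone BiP, went from 586 and 539 to 1413 and 2129.9 CPM (1.66 ± 0.29, adjusted p = 0.005), and Creld2 from 28.7 and 37.8 to 105 and 254 CPM (2.44 ± 0.43, adjusted p = 0.0049). Xbp1, a factor of that response, was at 259.6 and 284 and then 695 and 426 CPM (adjusted p = 0.0731). The calls of this list depended on the number of monocyte libraries, with 0, 1 and 5 members higher in the 3 omissions. The call of Hspa5 was lost without KO monocytes replicate 1 or 2 (adjusted p = 0.0506 and 0.067). The call of Creld2 was lost without KO monocytes replicate 1 (adjusted p = 0.0634). Of 30 tested amino acid response genes of 32, 6 rose and none fell, 5 rose with replicate 2 alone and 12 with the experiment as a block. Asns, asparagine synthetase, went from 1.57 and 0.78 to 12.6 and 27.3 CPM (4.07 ± 0.66, adjusted p = 0.00344). Of 16 genes of the NRF2 and metallothionein list, 7 rose and 1 fell, and 5 rose and 2 fell with replicate 2 alone. Srxn1, which repairs oxidised peroxiredoxins, went from 6.14 and 4.47 to 64.6 and 83.8 CPM (3.80 ± 0.46, adjusted p = 0.000838). At an unadjusted p below 0.05 in edgeR with both libraries, 7 members of the NRF2 list were higher and 5 lower. Their summed level went from 2970 and 3498 to 2672 and 2737 CPM. In turn over the 3 omissions, 2, 1 and 3 amino acid response genes and 2, 3 and 4 NRF2 genes were called higher.

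Other lists were mixed or held few calls. Glycolysis genes had 10.5% called higher and 5.26% lower and Toll-like receptor genes 4.545% each way, near the 7.7% and 6.14% of all tested genes. Among 30 subunits of oxidative phosphorylation none passed in edgeR or DESeq2 (median log2 fold change 0.53), with 6 higher at an unadjusted p below 0.05, 2 called with replicate 2 alone and 4 with the block. None of 25 cholesterol synthesis genes passed in edgeR with both libraries, with 3 higher and 1 lower at an unadjusted p below 0.05. With replicate 2 alone 1 was called lower, with the block or by DESeq2 1 was called higher, and with no filter on low counts 2 were called higher and 1 lower. Of 19 glycolysis genes 2 rose and 1 fell in either fit, the latter being the hexokinase gene Hk3, from 196 and 198 to 60.4 and 52.7 CPM (-1.80 ± 0.24, adjusted p = 0.00133). Of 22 Toll-like receptor genes 1 rose and 1 fell, 3 fell with replicate 2 alone and 10 with the block. Cd14, the coreceptor for lipopolysaccharide, fell from 99.1 and 71.8 to 12.5 and 4.43 CPM (-3.35 ± 0.72, adjusted p = 0.0131). The call of Cd14 was lost without KO monocytes replicate 1 or KO day 1 replicate 2 (adjusted p = 0.0684 and 0.104). Among 14 tested integrins, 3 rose (21.4%) and 2 fell (14.3%), against 7.7% and 6.14% of all tested genes, and 2 rose and 3 fell with replicate 2 alone. Those that fell with both libraries were beta subunits: Itgb7 from 816 and 856 to 75.3 and 17.9 CPM (-4.17 ± 0.70, adjusted p = 0.00405) and Itgb3 from 53.5 and 44.8 to 1.13 and 0.547 CPM (-5.91 ± 0.64, adjusted p = 0.000432). Lpl, lipoprotein lipase, rose from 129 and 98.4 to 922 and 5344 CPM (4.79 ± 0.69, adjusted p = 0.0019), and the library labelled KO day 1 replicate 1 was well below the 6017 and 5924 CPM of WT day 1.

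**Figure D3:**
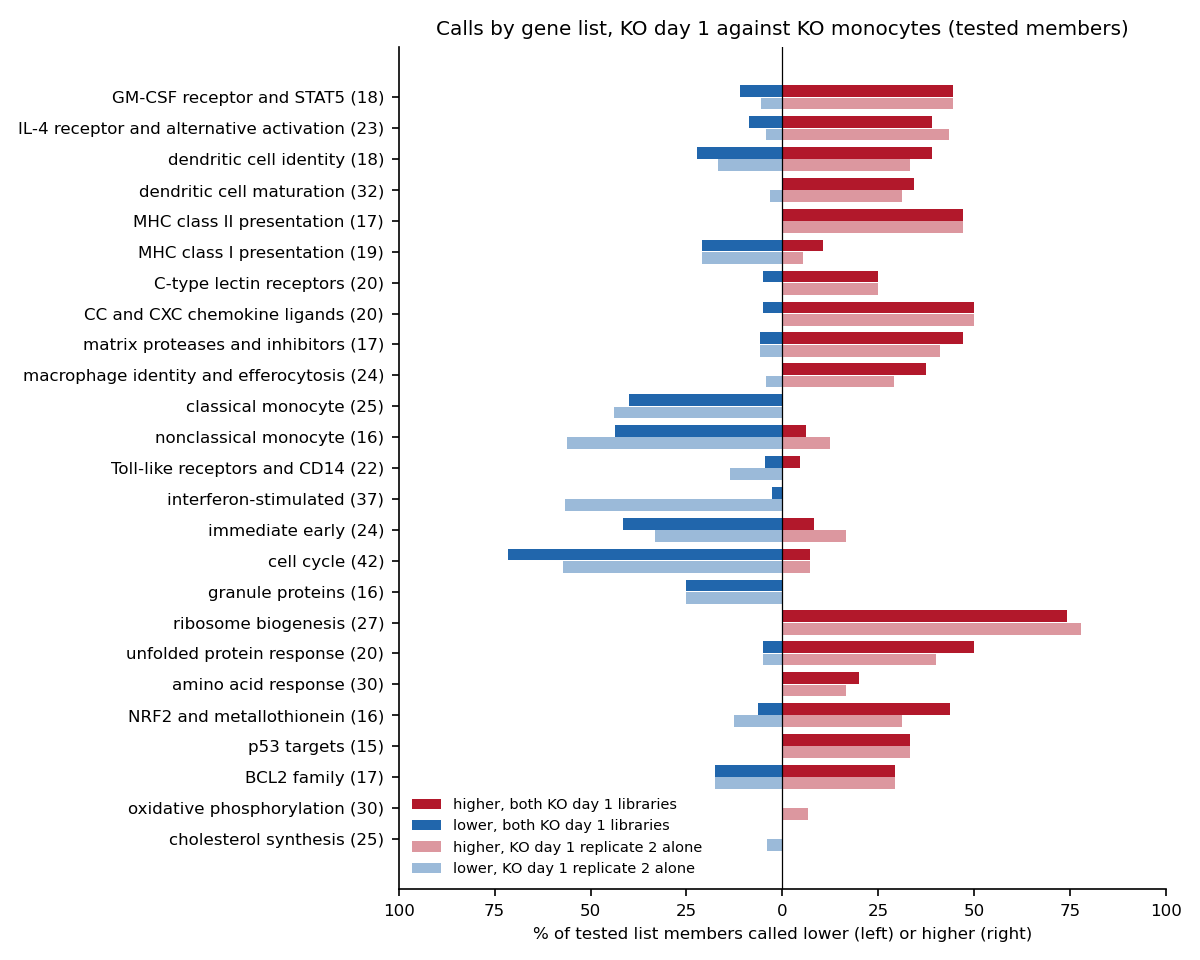
Bars give the share of tested members of each gene list (number in brackets) called higher, to the right, or lower, to the left, at day 1, in dark colours for both KO day 1 libraries and in pale colours for replicate 2 alone. The widest gap between the fits is in the interferon-stimulated genes, with 1 of 37 lower in the first and 21 of 37 in the second.

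Interferon-stimulated genes separated the 2 libraries labelled KO day 1 more than any other list compared here with at least 6 genes changed in WT cells. With both libraries 1 of 37 fell and none rose (median log2 fold change -1.02). With replicate 2 alone 21 of 37 fell and none rose (median -2.71), and 33 fell in that fit with the experiment as a block. The member that fell with both libraries was Ifitm6, from 217 and 207 to 10.6 and 5.47 CPM (-4.73 ± 0.77, adjusted p = 0.00344). Ifit3, whose start is printed above, went from 51.2 and 40.3 to 14.3 and 0.492 CPM, a log2 change of -2.66 ± 1.19 (adjusted p = 0.164) in the fit with both libraries and -6.55 (adjusted p = 0.0139) in the fit with replicate 2 alone. Oas3, which makes the messenger of the RNase L pathway, went from 233 and 149 to 105 and 1.86 CPM, a log2 change of -1.84 ± 1.16 (adjusted p = 0.324) in the fit with both libraries and -6.72 (adjusted p = 0.00201) in the fit with replicate 2 alone. Irf7, the factor that amplifies interferon responses, went from 237 and 230.2 to 103 and 4.32 CPM, a log2 change of -2.13 ± 1.14 (adjusted p = 0.24) in the fit with both libraries and -5.79 (adjusted p = 0.0128) in the fit with replicate 2 alone. WT day 1 held 0.661 and 2.12 CPM of Ifit3, 5.29 and 8.49 CPM of Oas3 and 5.37 and 19.3 CPM of Irf7. Replicate 2 and both WT libraries were thus low, and the library labelled KO day 1 replicate 1 kept values nearer those of monocytes. Oasl2 was at 203 and 146 CPM in monocytes and 201 and 4.76 CPM at day 1. Usp18 and Mx1 did not follow this pattern, at 64.3 and 71.0 CPM and 108 and 68.8 CPM at day 1 (adjusted p = 0.744 and 0.964). In 36 of the 37 genes the library labelled KO day 1 replicate 1 was above replicate 2, against 44.3% of all tested genes, and in 33 it was above both WT day 1 libraries, against 31.6%. The count of members lower in the fit with both libraries was 1 in each of the 3 omissions, 3 with the block, 6 by DESeq2 and 18 with no filter on low counts.

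Beyond interferon genes, the largest differences between the 2 day 1 libraries, given as a description, ran as follows. The highest ratios toward replicate 1 were in Rtp4, Oas3, Oasl2, Ly6i, Irf7, Ifi209, Oas2 and Mtus1. Rtp4 was at 60.3 and 0.93 CPM, Ly6i at 55.2 and 1.64 CPM and Mtus1 at 73.2 and 4.10 CPM. The highest ratios toward replicate 2 were in Rnase2a, Ccl24, Retnla, Cxcr2, Alox15, Arg1, Cd36 and Flt1. Rnase2a, an eosinophil-associated ribonuclease, was at 0 and 249.5 CPM and Flt1, a VEGF receptor, at 7.53 and 191 CPM. WT day 1 held 112 and 173 CPM of Rnase2a, 217 and 189 CPM of Cxcr2 and 180.4 and 538 CPM of Cd36, on the side of replicate 2. Rnase2a was not called with the experiment as a block (adjusted p = 0.0938). The call of Rnase2a was lost in the 3 omissions and without WT day 1 replicate 1 or 2 (adjusted p = 0.16, 0.207, 0.71, 0.0561 and 0.0556). Genes called lower with replicate 2 alone and not with both libraries included Ms4a6b, from 332 and 268 to 65.9 and 3.83 CPM, and Nxpe4, from 42.2 and 40.4 to 13.2 and 0 CPM (adjusted p = 0.00685 and 0.0169). Those called higher in that way included Il31ra and Vcam1, at 1.39 and 18.6 and 0.866 and 24.3 CPM (adjusted p = 0.00658 and 0.0102).

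The position of each library along the change of WT cells put a number on this. For each gene called in WT day 1 against WT monocytes with a log2 fold change of at least 1 in size, the distance from the KO monocyte mean to a KO day 1 library was divided by the WT change, on log2 CPM. Over 1489 genes higher in WT the median was 63.9% in the library labelled KO day 1 replicate 1 and 88.2% in replicate 2, and over 1346 genes lower in WT it was 64.4% and 92.4%. Replicate 1 was the less advanced in 1152 and 1002 of them. The shortfall was uneven between lists. For 18 interferon-stimulated genes that fell in WT, the median was 27.2% in replicate 1 and 102.5% in replicate 2, and for 10 IL-4 genes that rose, 60.0% and 102.4%. For 24 ribosome biogenesis genes it was 59.8% and 96.0%. Against these, 8 MHC class II genes stood at 94.97% in both, and 27 cell cycle genes that fell stood at 112.1% and 105.7%. For 12 immediate early genes that fell the medians were 104.1% and 110.5%, and for 11 GM-CSF genes that rose 84.1% and 81.7%. In these last 4 lists the library labelled KO day 1 replicate 1 had moved about as far as its partner. The file names give 16 hours for replicate 2, the further advanced of these libraries, and the part of culture time in the difference was not tested.

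**Figure D4:**
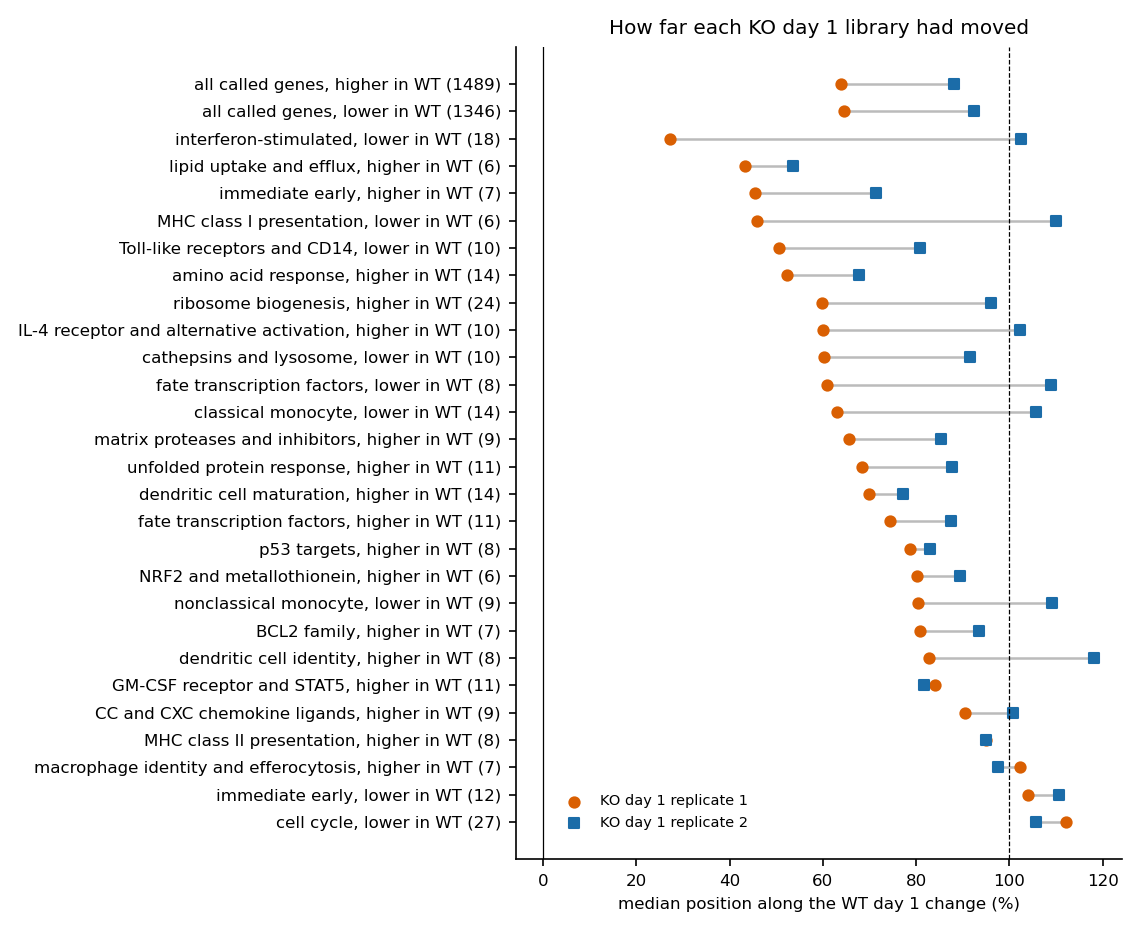
Median position of the library labelled KO day 1 replicate 1 (orange circles) and of KO day 1 replicate 2 (blue squares) along the WT day 1 change, in percent, for genes called in WT, by gene list and direction with the number of genes in brackets; 0 is the KO monocyte level and the dashed line at 100 the full WT change. Over all genes the circles sit at 63.9% and 64.4% and the squares at 88.2% and 92.4%, and the widest gap is in the interferon-stimulated genes, at 27.2% and 102.5%.

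**Figure D5:**
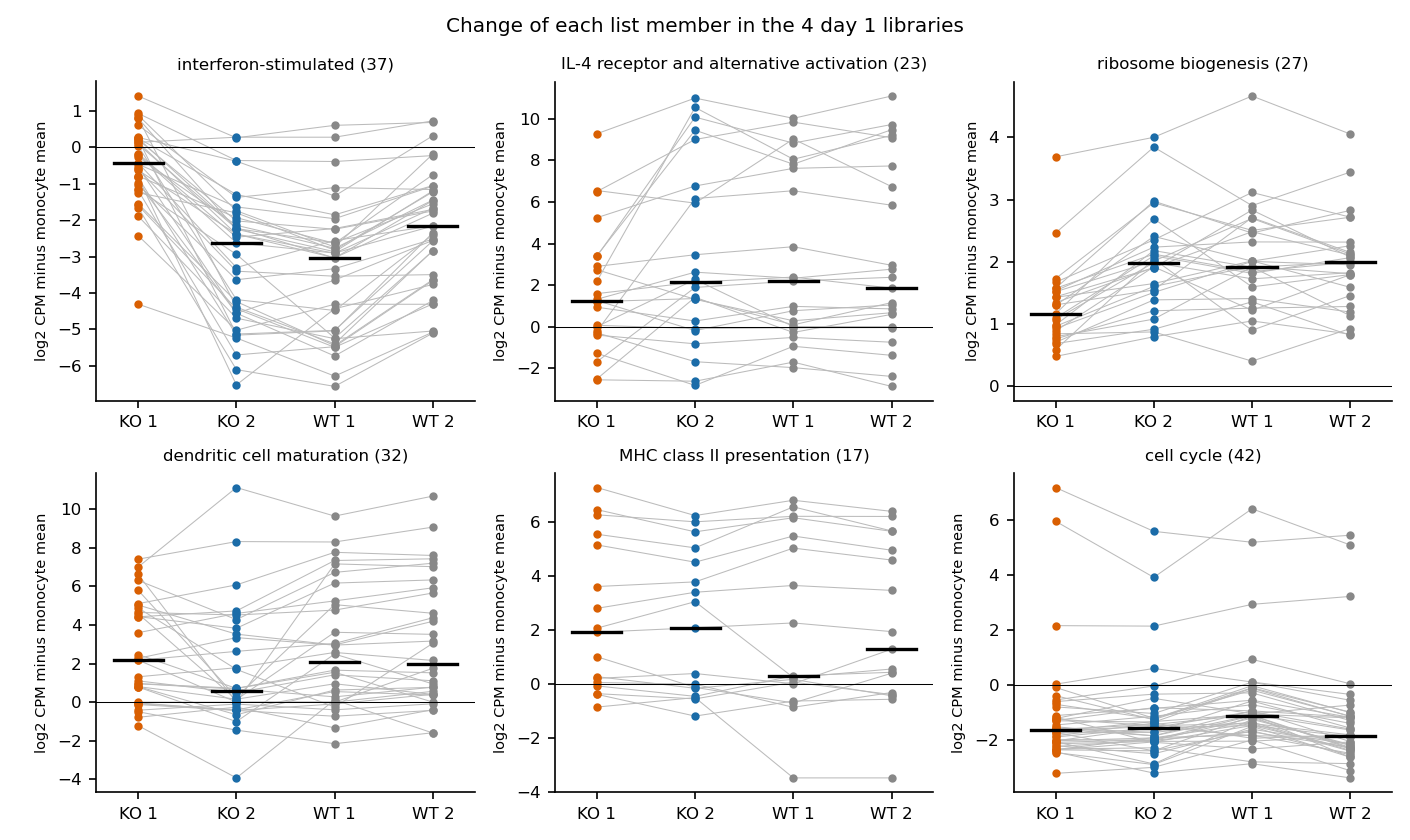
Log2 CPM of each tested member of 6 gene lists in the 4 day 1 libraries, minus the mean of the monocyte libraries of the same genotype; KO 1 and KO 2 are the libraries labelled KO day 1, grey lines join the values of 1 gene and black bars are medians. In the interferon-stimulated panel the median of KO 1 is -0.43 while those of the other 3 libraries lie between -3.03 and -2.16, and in the MHC class II panel KO 1 and KO 2 have medians of 1.91 and 2.07.

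Whether any change differed between genotypes was tested as the KO change minus the WT change. In WT cells 1598 genes rose (11.4%) and 1424 fell (10.1%) over the same day. Both genotypes shared 902 rises, 83.4% of those in KO and 56.4% of those in WT, and 732 falls, 85.0% and 51.4%. Fewer genes were called in KO cells, but no gene passed the test of the difference itself (0 of 14034, 0.0% in either direction; smallest adjusted p = 0.265). At an unadjusted p below 0.05 there were 400 genes, or 331 without the library labelled KO day 1 replicate 1, fewer in each fit than the 5.0% of tested genes that this threshold passes where no gene differs. With no filter on low counts edgeR called 80 genes with a higher and 35 with a lower change in KO. DESeq2 called 2 genes, both with a lower change in KO. One was Traf1 (chromosome 2:34941750-34961772), which went from 2.14 and 1.77 to 45.4 and 56.1 CPM in KO and from 0.23 and 0.211 to 63.5 and 67.5 CPM in WT, with its levels apart mainly in monocytes. Its difference of change was -3.45 ± 0.47 on the log2 scale (edgeR unadjusted p = 1.89e-05, adjusted p = 0.265, and adjusted p by DESeq2 = 0.0407). Its WT monocyte levels were no higher than those of 3 reads (0.230 and 0.316 CPM), so the size of this difference rests on counts near the floor. The other was Azin2, at 0.214 and 0.496 CPM in KO monocytes and 2.15 and 1.80 CPM in WT day 1, with no reads in KO day 1 or WT monocytes. It was the 1 gene called in opposite directions in the genotypes, at low levels throughout (adjusted p by DESeq2 = 0.00584), and its fall in KO was not called with replicate 2 alone (adjusted p = 0.0678). The call of Azin2 was lost in the 3 omissions and without WT day 1 replicate 1 or 2 (adjusted p = 0.0596, 0.145, 0.179, 0.0517 and 0.0506).

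For genes of dendritic cell migration the difference between genotypes depended on which KO day 1 library was used. Fscn1, Cacnb3 and Ccr7 were chosen after their values in these libraries were seen, so leaving out a library cannot serve as a test of them. Without the library labelled KO day 1 replicate 1, the KO change of Fscn1 was lower than the WT change (no fold is given, since WT monocytes had no reads of it). The KO change of Ccl22 differed from the WT change by a log2 difference of -2.68, that of Cacnb3 by -3.60 and that of Ccr7 by -5.73. The KO side then rests on 1 day 1 library. With both libraries the differences were -1.32 for Ccl22, 0.50 for Cacnb3 and -0.27 for Ccr7. For Il4i1, an amino acid oxidase of dendritic cells, the KO day 1 libraries held 23.6 and 46.5 CPM and WT day 1 107 and 95.5 CPM, so both KO libraries were below both WT libraries, with a difference of change of -2.38 (unadjusted p = 0.0708). Aldh1a2, which makes retinoic acid, was at 4.24 and 2.74 CPM in KO day 1 and 12.2 and 13.7 CPM in WT day 1, with no reads in WT monocytes (unadjusted p of the difference of change = 0.43). None of these differences passed adjustment.

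Among markers of other cells, several erythroid and progenitor genes fell. Of all tested genes 7.7% rose and 6.14% fell, and the neutrophil shares, 6.25% each way, lay near these. Where a short list below held 1 call, it is given for the gene and not as a result for the cell type. Of the erythroid genes 5 of 7 tested fell, 4 with replicate 2 alone, and their summed level went from 63.1 and 38.9 CPM in KO monocytes to 6.58 and 2.41 CPM at day 1. Progenitor markers fell in 5 of 9 tested, 4 with replicate 2 alone, and 4 of the 5 are the granule genes named above. Among 16 neutrophil markers 1 rose, Cxcr2, and 1 fell, Padi4, from 79.3 and 55.1 to 17.3 and 4.54 CPM (adjusted p = 0.0127), and with replicate 2 alone 1 rose and 2 fell. Of 8 B cell markers 1 rose, the adaptor gene Blnk, from 0.928 and 0.709 to 2.60 and 19.9 CPM, while Ms4a1 had no reads in KO day 1. With both libraries no tested marker passed in edgeR among 4 of T and NK cells, 5 of eosinophils and 5 of plasmacytoid dendritic cells, with 1, 0 and 1 lower at an unadjusted p below 0.05 and the same numbers called lower by DESeq2. In edgeR, 1 plasmacytoid marker was called lower with the block or with no filter on low counts, and 1 eosinophil marker higher with the block and replicate 2 alone. Pf4 was the 1 of 5 platelet markers that rose, Gata2 the 1 of 6 basophil and mast cell markers that rose, and Pecam1 the 1 of 5 stromal markers that fell. The stromal markers had a median log2 fold change of -2.90, with 3 lower at an unadjusted p below 0.05 and 2 called lower by DESeq2 or with the block, and their summed level went from 30.6 and 31.6 CPM to 3.29 and 9.47 CPM. Gata2 and Pecam1 were not called with replicate 2 alone (adjusted p = 0.294 and 0.065). The call of Padi4 was lost without KO monocytes replicate 1 or KO day 1 replicate 2 (adjusted p = 0.0795 and 0.056). The call of Blnk was lost in the 3 omissions (adjusted p = 0.101, 0.124 and 0.168). The call of Cxcr2 was lost in the 3 omissions and without WT day 1 replicate 1 or 2 (adjusted p = 0.145, 0.215, 0.816, 0.0569 and 0.0563). The call of Gata2 was lost without KO monocytes replicate 1 or 2 or WT day 1 replicate 1 or 2 (adjusted p = 0.107, 0.226, 0.0624 and 0.0614). The call of Pecam1 was lost without KO monocytes replicate 1 or 2 (adjusted p = 0.0995 and 0.111). The part of other cells in the falls of globin, progenitor and stromal genes was not tested.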

How the data were processed

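RNA of 12 libraries, 2 in each of 6 groups, was sequenced after poly(A) selection with a stranded kit, per the labels' protocols. Reads were trimmed with Trimmomatic 0.35 and aligned to GRCm38 with STAR 2.5.1b, per the submitters' processing notes. The deposited files hold raw counts of reads per gene in STAR's layout, unstranded and for each strand. The column for the reverse strand was used, since the other strand held 3.63% to 5.33% as many gene reads. The lines that name no gene were left out of library sizes and tests. They were unmapped reads (2.65% to 7.91%), multimapping reads (5.29% to 8.94%), reads in no feature (5.24% to 11.2%) and ambiguous reads (1.34% to 1.76%). Not given in the sources used here is the annotation release behind the counts. Symbols and coordinates came from GENCODE M21, which held 47224 of 47643 gene IDs, 39106 of them in the same version. No pair of libraries agreed within sampling noise (least chi-square per degree of freedom 11.1, over genes with at least 20 summed reads).

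The libraries were compared with edgeR 4.0.16 in R 4.3.3 (TMM normalization, filterByExpr, robust quasi-likelihood fit, 1 mean per group, all 12 libraries, 6 residual degrees of freedom). Benjamini-Hochberg adjusted p-values covered all 14034 tested genes, or 15159 without the library labelled KO day 1 replicate 1 (5 residual degrees of freedom), with a threshold of 0.05. Levels are CPM, counts per TMM-adjusted library size. Errors after ± are standard errors of the log2 fold change, and 2 libraries per group limit every p. The labels speak of independent experiments, so p-values measure the spread between those. The procedure was tested on simulated data.

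File-name dates pair the day 1 and monocyte libraries of equal number. Deviations of paired libraries from their group means correlated at 0.128 in KO and 0.276 in WT, at 0.236 between genotypes in monocytes and 0.194 at day 1. The experiment as a block was therefore run as an alternative. Others were RLE and upper-quartile normalization, no filter on low counts, DESeq2 1.42.0, unstranded counts, only the groups compared, and libraries left out. Omissions in the position measure, and the interferon and Y box motifs, were added after the data were seen.

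Groups, lists and members were chosen with earlier results of these data known. Genes named are the 12 largest rises and falls past the threshold (mean of at least 5 CPM over the 4 libraries, both pairs alike), within each list up to 4 called and 2 abundant uncalled members, the 8 largest differences each way between the day 1 libraries (mean of at least 20 CPM), and genes called with replicate 2 alone. Fewer are printed, and some members of the lists are not reported here. Chosen after their values were seen were Ccr7, Fscn1, Cacnb3, Ly6c2, Csf1r, Mx1, Usp18, Cd209a, Ccnd1, Ccnd2, Csf2rb, Csf2rb2, Jak2, Stat5b, Jak3, Klf4, Batf3, Irf4, Irf8, Id2, Flt3, Cd80, Ccl17, Ccl7, Ccl3, H2-DMb1, Tap1, Gpnmb, Stab1, Apoe, Zfp36, Ier3, Mki67, Bax, Bmf, Ncl, Il4i1, Aldh1a2, H2-Aa, H2-DMa, H2-DMb2, Ly6g, Rfx5, Rfxank, Rfxap and Stat5a. Promoter windows are from RefSeq on GRCm38.p6.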

Additional observations from a re-analysis of the deposited data

How the results depend on the processing

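Of the 177 named genes that were called, 98 were called under every alternative and 79 lost their call under at least 1. In the counts that follow, a lost call is counted only where the fold change kept its sign. The count without KO day 1 replicate 2 thus leaves out Cxcr2 and Rnase2a, which were also not called there. Without KO monocytes replicate 1 or 2, 69 and 64 were not called, without KO day 1 replicate 1 or 2, 17 and 44, and without WT day 1 replicate 1 or 2, 12 each. Fits of the groups compared only lost 17, and DESeq2 and the omission of either WT monocyte library lost 0. Between 1 and 4 were lost by RLE or upper-quartile normalization, no filter on low counts, unstranded counts or the experiment as a block. Without both libraries that stand apart 17 were lost. Among the printed genes the block ended the calls of Ccl24, Cxcr2 and Rnase2a, given above. The genes called lower in KO numbered 1412 by DESeq2, 1419 with the block, and 1350 with the block and replicate 2 alone. Without both libraries that stand apart (WT monocytes replicate 2 and that labelled KO day 1 replicate 1) 1734 genes were higher and 1574 lower. With replicate 2 alone, DESeq2 called 1644 lower, and a fit of the groups compared called 1720 higher and 2038 lower. Leaving out 1 library gave 303 to 1575 genes higher and 276 to 1239 lower in KO. With replicate 2 alone these ranges were 394 to 1734 and 326 to 1574. There KO monocytes replicates 1 and 2 lowered the counts (452 and 394 higher, 414 and 326 lower) when left out, and WT monocytes replicates 1 and 2 raised them (1729 and 1734, 1505 and 1574). The WT counts ranged from 789 to 2383 higher and 608 to 1540 lower, and were 667 and 787 in a fit of those groups only. They were 789 and 608 without WT day 1 replicate 1, 844 and 612 without replicate 2, and 1063 higher without WT monocytes replicate 2. The difference between genotypes had 0 calls in either direction in each omission, 80 higher and 35 lower with no filter on low counts, and 2 lower by DESeq2. The median positions kept their order, at 60.0% to 68.3% and 83.9% to 94.5% for genes higher in WT and 63.5% to 66.4% and 89.4% to 95.9% for genes lower in WT. Changes of sign were recorded only for named genes called in the fit with both libraries or in the alternative. Among these, the log2 fold changes of Cxcr2 (-0.45) and Rnase2a (-3.76) changed sign without KO day 1 replicate 2 (up to 6.36 and 13.46 in the other omissions). Those of Isg15 (-2.56) and Ly6i (-4.11) changed sign with the block and replicate 2 alone. The causes of these changes were not tested. With 10733224 gene reads in the shallowest KO library, genes near 3 reads could not be compared.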
